A study of Mus musculus with 4 samples.

Results

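The genes described here are 10 steroid-metabolising genes of mouse liver: Hsd3b2, Hsd3b3, Hsd3b5, Hsd11b1, Hsd17b6, Hsd17b11, Hsd17b13, Akr1c6, Srd5a1 and Cyp17a1. They were taken by symbol from the 50584 gene symbols of the count files, and all 10 were found and passed the filter on low counts. Liver poly(A) RNA had been sequenced from 14-week-old male wild-type mice on chow, 2 of the inbred strain DBA/2J and 2 of C57BL/6J, and the strains carry no transgene or treatment by the labels. The study concerns Mlycd, the malonyl-CoA decarboxylase gene, which differed by -0.91 ± 0.08 (SE) on the log2 scale. All log2 differences are DBA/2J minus C57BL/6J, from edgeR's quasi-likelihood test with Benjamini-Hochberg adjustment over 15647 tested genes, and a gene is called at an adjusted p below 0.05.

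The liver does not make steroid hormones from cholesterol on the scale of adrenal or gonad, but it activates, reduces and clears them. Hydroxysteroid dehydrogenases (HSD) interconvert hydroxyl and keto groups at set positions of the steroid ring, and so switch hormones between active and inactive forms. Aldo-keto reductases of the AKR1C group reduce keto groups, and the SRD5A reductases saturate the A ring of testosterone, progesterone and glucocorticoids. Several of these enzymes also act on retinoids, bile acids or lipids, and some are known to differ between male and female mouse liver.

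The 3 Hsd3b genes lay in one cluster on chromosome 3 (GRCm38, reverse strand), Hsd3b5 at 98618634 to 98630252, Hsd3b2 at 98709255 to 98724543 and Hsd3b3 at 98741523 to 98763127. Their coding sequences in GENCODE were 1119 bases each. Hsd3b2 and Hsd3b3 were 95.1% identical, whereas Hsd3b2 and Hsd3b5 were 80.5% identical. For these neighbours, the 250 bases before the first RefSeq start of each are shown (RefSeq, GRCm38.p6, reverse strand, the C57BL/6J reference). They span chr3:98724544-98724793 for Hsd3b2, chr3:98763129-98763378 for Hsd3b3 and chr3:98645535-98645784 for Hsd3b5, whose RefSeq start lies upstream of the gene model that was counted. Capitals mark runs of at least 15 bases shared exactly with another of the 3 windows.
Hsd3b2: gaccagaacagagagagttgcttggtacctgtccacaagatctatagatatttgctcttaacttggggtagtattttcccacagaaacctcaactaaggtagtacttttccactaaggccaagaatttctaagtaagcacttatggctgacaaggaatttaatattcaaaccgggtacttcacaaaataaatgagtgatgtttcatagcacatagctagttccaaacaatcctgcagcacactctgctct
Hsd3b3: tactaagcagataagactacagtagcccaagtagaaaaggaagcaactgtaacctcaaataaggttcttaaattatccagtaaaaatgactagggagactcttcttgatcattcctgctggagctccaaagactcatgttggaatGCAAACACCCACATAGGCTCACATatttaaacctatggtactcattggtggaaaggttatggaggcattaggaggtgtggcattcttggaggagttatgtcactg
Hsd3b5: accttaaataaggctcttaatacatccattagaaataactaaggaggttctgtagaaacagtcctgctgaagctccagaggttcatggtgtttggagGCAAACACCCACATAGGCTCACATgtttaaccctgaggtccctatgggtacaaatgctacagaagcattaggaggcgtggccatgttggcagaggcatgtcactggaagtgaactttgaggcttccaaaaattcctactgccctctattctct
The Hsd3b3 and Hsd3b5 windows shared a run of 24 bases and aligned locally over 202 columns at 74.8% identity. The Hsd3b2 window held 0 capital bases. Its best local alignment covered 38 columns with Hsd3b3 and 31 with Hsd3b5. The DBA/2J sequence of these windows was not analysed here, so any part of them in the strain differences was not tested.

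RefSeq promoter windows were matched for 9 of the 10 genes. The motif TTCNNNGAA, searched on both strands as the core of STAT5 sites, was in 0 of these 9 windows of 250 bases and in 7.01% of all 32817 windows. TATAAA, searched likewise, was in 1, that of Akr1c6, against 12.4% of all windows. The windows differed in base composition: the GC content was 64.8% for Srd5a1, with 20 CpG, and 54.8% for Hsd17b11, with 13 CpG. It was 34.0% for Akr1c6, with 0 CpG, and 39.6% for Hsd3b2, with 1 CpG. The median over all windows was 52.4%, with 6 CpG.

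Total counts ranged from 48096706 to 52520737 per library, and a count of 3 corresponded to 0.0542 to 0.0622 CPM (the count scaled to a common TMM-adjusted library size). Ddx3y was read in every library and Xist had 4 to 17 counts, as the male label states. Of 6 hepatocyte markers, 0 were called by edgeR (1 at an unadjusted p below 0.05, and 1 by DESeq2), with summed levels of 82263 to 86064 CPM in DBA/2J and 84640 to 94112 CPM in C57BL/6J. The 6 markers of adrenal or gonadal steroid-making cells summed to 3.92 to 4.71 CPM in DBA/2J and 7.19 to 9.03 CPM in C57BL/6J. Of these, Star had 153 to 176 counts and Cyp21a1, called lower (1 of 2 tested), 41 to 272. Cyp11b1 and Cyp19a1 were at 0 counts in each library and Cyp11a1 and Cyp11b2 had at most 1. The summed level of 5 cholangiocyte markers was 23.9 to 24.6 CPM in DBA/2J and 49.8 to 76.5 CPM in C57BL/6J, with Spp1 called lower (1 of 5). That of 5 stellate cell markers was 182 to 229 CPM against 99.8 to 140 CPM, with Reln called higher (1 of 5). The Kupffer cell markers summed to 112 to 115 CPM against 104 to 131 CPM (Marco lower, 1 of 5), and the endothelial ones to 118 to 136 CPM against 101 to 123 CPM (Stab2 higher and Lyve1 lower, 2 of 5). The lymphocyte and neutrophil markers summed to 1.18 to 1.31 CPM against 0.621 to 6.94 CPM; edgeR called 0 of 4 tested, with 0 at an unadjusted p below 0.05 and 1 called by DESeq2. At an unadjusted p below 0.05, edgeR had 3 of the 5 stellate cell markers higher, and DESeq2 called 2. Limma-voom called 0 Kupffer cell markers. Without DBA/2J replicate 1 or replicate 2, none of these marker lists held a called gene, but fewer of all tested genes were called too. More stellate cell markers were called without C57BL/6J replicate 1. More cholangiocyte, lymphocyte and neutrophil markers were called without C57BL/6J replicate 2. The part of these cell types in the results was not tested, and in bulk tissue fewer cells of a type and less RNA per cell cannot be told apart. C57BL/6J replicate 1 had 1968 CPM of the acute phase gene Saa1, against 138 CPM in C57BL/6J replicate 2 and 99.3 and 35.9 CPM in DBA/2J. Of 16 acute phase genes, edgeR called 4, Apcs higher and Orm1, Crp and Hamp lower, and DESeq2 called 10. Over all tested genes, edgeR called 18.2%. These 4 calls were lost with either DBA/2J library left out. More of the 16 were called lower with either C57BL/6J library left out, and more of all tested genes were called too.

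Of the 10 genes, 3 were higher in DBA/2J (Hsd3b2, Hsd17b6 and Hsd11b1), 1 was lower (Srd5a1) and 6 were not called. Over all tested genes 18.2% were called, 9.29% higher and 8.87% lower. For 7 of the 10 genes both values of one strain lay above both of the other, against 63.8% of all tested genes, so non-overlap was about as frequent here as elsewhere. The median log2 difference was -0.00 for the 10 genes and 0.01 for all tested genes. The summed level of the 10 genes was 3526 to 3534 CPM in DBA/2J and 3119 to 3188 CPM in C57BL/6J.

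**Figure D1:**
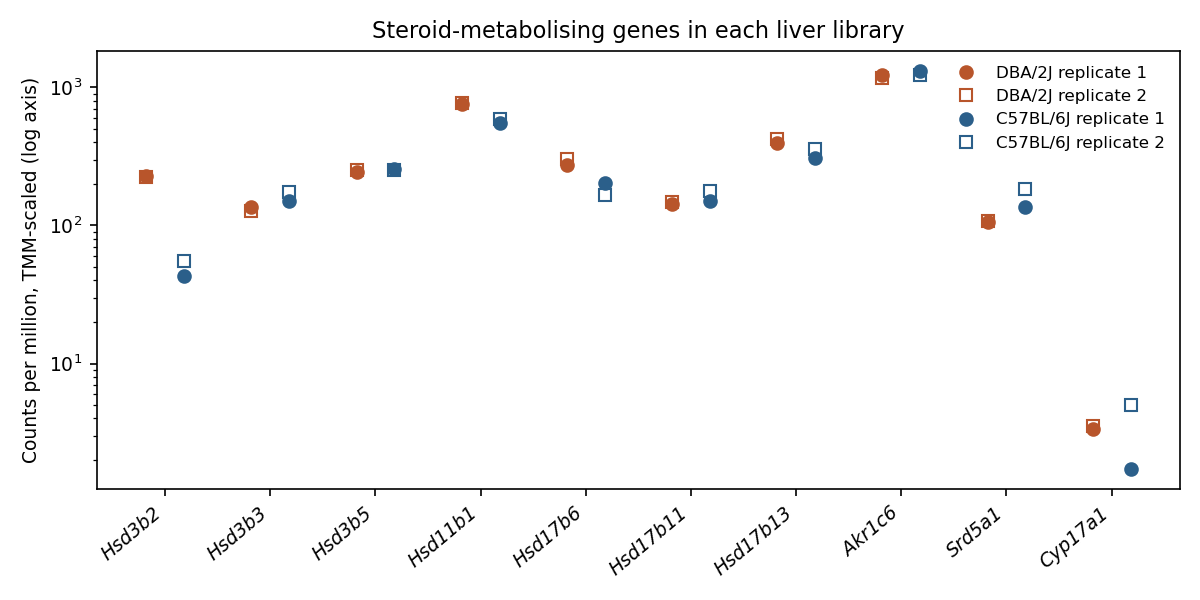
Level of each gene in each of the 4 libraries, in TMM-scaled CPM on a log axis; circles are replicate 1 and squares replicate 2. Hsd3b2 lies at 226 and 229 CPM in DBA/2J and at 43.4 and 55.2 CPM in C57BL/6J, and the Cyp17a1 points of C57BL/6J lie farthest apart.

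Hsd3b2 had the largest strain difference of the 10. The HSD3B enzymes oxidise the hydroxyl group of pregnenolone and dehydroepiandrosterone and shift the ring's double bond, giving progesterone and androstenedione. Hsd3b2 had 11034 and 12490 counts in DBA/2J and 2114 and 2753 counts in C57BL/6J. Both DBA/2J libraries stood far above both C57BL/6J libraries. The means were 227 CPM ± 2.08 (SD, n = 2) and 49.3 CPM ± 8.33 (SD, n = 2), a 4.61-fold higher level in DBA/2J. The log2 difference was 2.21 ± 0.13 (SE; edgeR adjusted p = 7.67e-04). It was called in all 12 alternative fits, including each of the 4 without one library (log2 2.04 to 2.39, edgeR adjusted p up to 0.0236).

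The other expressed Hsd3b genes of the cluster, Hsd3b5 and Hsd3b3, did not follow Hsd3b2. Hsd3b5, known as a male-predominant liver gene whose enzyme acts as a keto-steroid reductase, had 11717 and 13990 counts in DBA/2J and 12494 and 12588 in C57BL/6J. The strains overlapped, with means of 248 CPM ± 7.08 and 254 CPM ± 2.92 (SD, n = 2 each). The log2 difference was -0.04 ± 0.08 (edgeR adjusted p = 0.779), and 0.04 when scaled by library totals alone. Hsd3b3 had 6588 and 7020 counts in DBA/2J and 7357 and 8709 in C57BL/6J. Both DBA/2J values were below both C57BL/6J values, at 132 CPM ± 6.83 against 163 CPM ± 16.6 (SD, n = 2 each). The log2 difference of Hsd3b3 was -0.31 ± 0.10 and did not pass the threshold (edgeR adjusted p = 0.0923); without C57BL/6J replicate 1 it was called lower (-0.41, edgeR adjusted p = 0.0152).

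The makeup of the Hsd3b counts therefore differed between the strains. Hsd3b2 gave 37.3% and 37.6% of the cluster's counts in DBA/2J and 9.62% and 11.4% in C57BL/6J. Hsd3b5 gave 39.9% and 41.8% in DBA/2J and 56.9% and 52.3% in C57BL/6J. Hsd3b3 gave 22.5% and 21.0% in DBA/2J and 33.5% and 36.2% in C57BL/6J. The other counted copies of the cluster, Hsd3b1, Hsd3b4 and Hsd3b6, had 0 to 2 counts in any library. The sum of the 6 copies does not depend on how counted reads were split among them, though reads left uncounted are missing from it. This sum was 607 CPM ± 1.8 in DBA/2J and 466 CPM ± 22.1 in C57BL/6J (SD, n = 2 each). Its log2 difference was 0.38 ± 0.09 (edgeR adjusted p = 0.0443), a call lost without DBA/2J replicate 1, DBA/2J replicate 2 or C57BL/6J replicate 1 (edgeR adjusted p = 0.29, 0.258 and 0.0697).

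**Figure D2:**
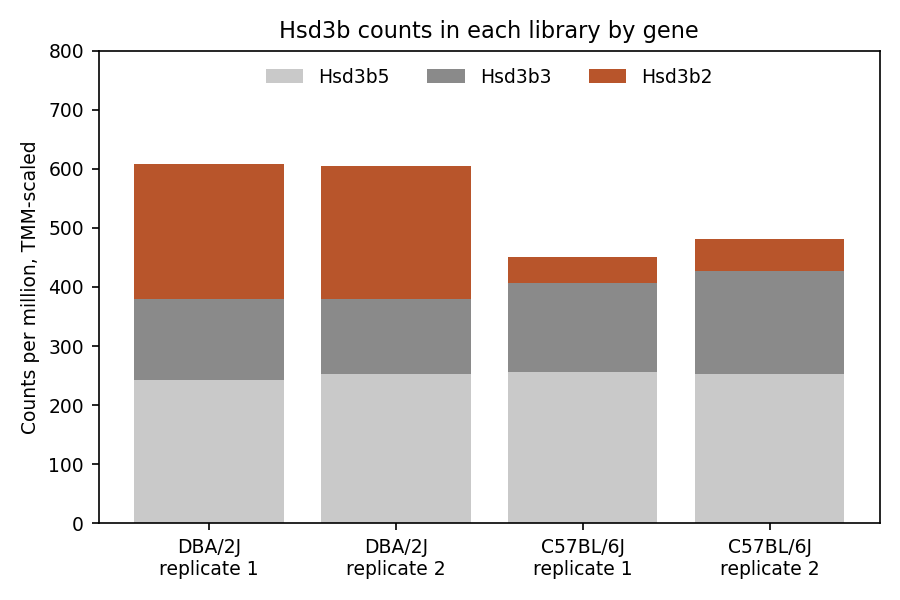
TMM-scaled CPM of the 3 expressed Hsd3b genes, stacked for each library from 0. The Hsd3b5 segments are nearly equal in the 4 bars, and the Hsd3b2 segments are 226 to 229 CPM in DBA/2J and 43.4 to 55.2 CPM in C57BL/6J.

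How far copies could share reads was measured on GENCODE transcripts, as windows of 100 bases, the read length the labels give. Of the distinct windows of Hsd3b2, 8.28% occurred in transcripts of another gene, among them Hsd3b3 and Hsd3b6. The share was 4.67% for Hsd3b3, 7.79% for Hsd3b5 and 8.77% for Hsd17b6, whose windows recurred in Rdh genes. For Srd5a1 it was 13.6%, all in Gm17108, an overlapping gene model. It was 0% for Hsd11b1, Hsd17b11, Hsd17b13, Akr1c6 and Cyp17a1. Of exon bases, 2.68% of Hsd3b2 and 4.39% of Hsd3b3 overlapped Zfp697 on the other strand, where reads may also go uncounted. Hsd3b7, a bile acid enzyme gene outside the cluster, had 0 counts in each library, and 99.2% of its exon bases were shared with other symbols. Reads of both strains had been aligned to the C57BL/6J-derived reference, so reads that differ in DBA/2J can be lost or misplaced.

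Hsd11b1 was higher in DBA/2J. Its enzyme regenerates active corticosterone from the inactive keto form in liver, with NADPH supplied by hexose-6-phosphate dehydrogenase inside the endoplasmic reticulum. The gene lies on chromosome 1 at 193221634 to 193264075 (reverse strand). Hsd11b1 had 36826 and 42772 counts in DBA/2J and 26751 and 29557 in C57BL/6J, without overlap between the strains. The means were 768 CPM ± 6.95 and 571 CPM ± 30.6 (SD, n = 2 each), 1.35-fold higher in DBA/2J. The log2 difference was 0.43 ± 0.10 (edgeR adjusted p = 0.039). The call was lost without DBA/2J replicate 1 (0.42), DBA/2J replicate 2 (0.42) or C57BL/6J replicate 1 (0.37). It was also lost with the replicate number as a block (edgeR adjusted p = 0.0623). The same held when only genes with 0 counts in all libraries were removed (edgeR adjusted p = 0.0503).

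Genes around glucocorticoid action were read from lists. H6pd, the NADPH supplier, had a log2 difference of 0.32 ± 0.12 (edgeR adjusted p = 0.13). Nr3c1, the glucocorticoid receptor gene, was higher by 0.52 ± 0.08 (edgeR adjusted p = 0.0135), with 5265 and 5514 counts in DBA/2J and 3496 and 3674 in C57BL/6J. It was not called without DBA/2J replicate 1 or replicate 2 (edgeR adjusted p up to 0.173). Of 14 known glucocorticoid-induced genes, edgeR called 0; 4 were lower at an unadjusted p below 0.05, DESeq2 called 3 and limma-voom 0. Over all tested genes, edgeR called 18.2%. The median log2 difference of the 14 was -0.33, against 0.01 over all tested genes. With either C57BL/6J library left out, some of the 14 were called higher and others lower, and more of all tested genes were called too.

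Hsd17b6 was higher in DBA/2J. Its enzyme oxidises androstanediol back to dihydrotestosterone and is related in sequence to retinol dehydrogenases. The gene lies on chromosome 10 at 127990936 to 128007611 (reverse strand). Hsd17b6 had 13234 and 16844 counts in DBA/2J and 9965 and 8247 in C57BL/6J, and both DBA/2J libraries were above both of C57BL/6J. The means were 289 CPM ± 21.3 and 185 CPM ± 27.7 (SD, n = 2 each), 1.57-fold higher in DBA/2J. The log2 difference was 0.65 ± 0.13 (edgeR adjusted p = 0.0241). It was not called without DBA/2J replicate 1 (0.70) or replicate 2 (0.56). The call was also lost when only genes with 0 counts in all libraries were removed (edgeR adjusted p = 0.0598).

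The genes around Hsd17b6 moved in both directions. Of 18 other tested genes within 250 kb, 2 were higher and 3 lower. Higher were Sdr9c7 (1.59 ± 0.16, edgeR adjusted p = 0.00352), with 9890 and 10944 counts in DBA/2J against 2751 and 3876, and the retinol dehydrogenase gene Rdh9 (1.60 ± 0.20, edgeR adjusted p = 0.00704). Lower were Rdh16f2 (-1.07 ± 0.16, edgeR adjusted p = 0.0123), Ptges3, a co-chaperone of steroid receptors (-0.62 ± 0.09, edgeR adjusted p = 0.0109), and Naca, a ribosome-associated factor (-0.40 ± 0.08, edgeR adjusted p = 0.0254). Rdh7, the most abundant of the cluster at 1446 CPM in DBA/2J and 1276 CPM in C57BL/6J, had a log2 difference of 0.18 ± 0.12. None of these 5 calls held without DBA/2J replicate 1 or replicate 2 (highest edgeR adjusted p from 0.057 for Sdr9c7 to 0.237 for Naca). Of 13 tested retinol dehydrogenase genes in all, 2 were higher and 1 lower, against 18.2% of all tested genes called. These were Sdr9c7, Rdh9 and Rdh16f2 of this same locus. The median log2 difference of the 13 was 0.16.

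**Figure D3:**
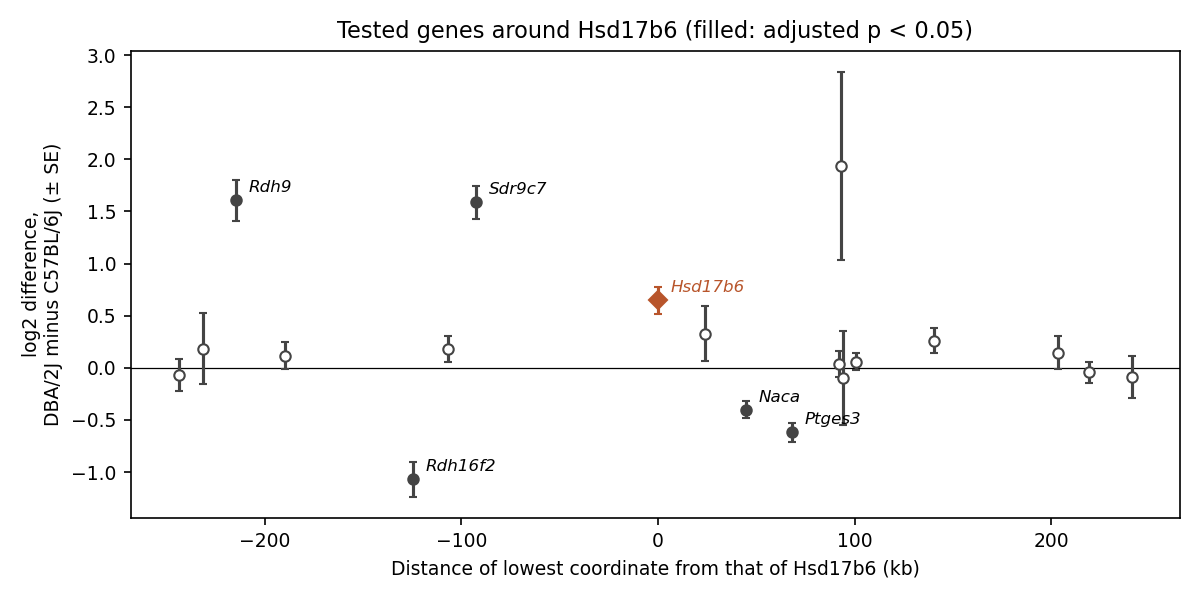
Strain difference (log2, ± SE) of the 18 tested genes within 250 kb of Hsd17b6 (diamond), by distance in kb along the chromosome; filled points have an edgeR adjusted p below 0.05. Sdr9c7 and Rdh9 lie near 1.6, and Rdh16f2, Ptges3 and Naca lie below 0.

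Counting each gene once, 51 other tested genes lay within 250 kb of the 10 genes, of which 5 were higher and 4 lower (17.6%, close to the 18.2% of all genes). This total includes the 18 genes around Hsd17b6, with 2 called higher and 3 called lower. The remaining loci held 4 called genes. Hao2, near the Hsd3b cluster, had 22 and 22 counts in DBA/2J and 3 and 2 in C57BL/6J (edgeR adjusted p = 0.0166). Sparcl1, near Hsd17b11 and Hsd17b13, differed by 1.26 ± 0.17 (edgeR adjusted p = 0.00941). Ube2ql1, near Srd5a1, had 53 and 83 counts against 2 and 9 (edgeR adjusted p = 0.0127). Sfxn2, near Cyp17a1, was lower by -0.63 ± 0.12 (edgeR adjusted p = 0.0233). None of these 4 was called without DBA/2J replicate 1 or replicate 2 (highest edgeR adjusted p from 0.0941 for Ube2ql1 to 0.201 for Sfxn2). Near Hsd11b1 (8 genes) and Akr1c6 (7 genes), edgeR called 0.

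Hsd17b11 and Hsd17b13, adjacent on chromosome 5 at 103989762 to 104021919 and 103955440 to 103977410 (reverse strand), encode proteins of the lipid droplet surface. HSD17B11 oxidises androstanediol, and HSD17B13 is a hepatocyte protein with reported activity on retinol. Hsd17b13 had 19205 and 23484 counts in DBA/2J and 14960 and 17930 in C57BL/6J, at 411 CPM ± 18.7 and 333 CPM ± 37.0 (SD, n = 2 each). Hsd17b11 had 6866 and 8138 counts in DBA/2J and 7302 and 8890 in C57BL/6J, at 145 CPM ± 3.38 and 164 CPM ± 20.0 (SD, n = 2 each). The strains did not overlap for either gene in CPM, Hsd17b13 being on the higher side in DBA/2J and Hsd17b11 on the lower. Neither passed the test: the log2 difference was 0.30 ± 0.11 for Hsd17b13 (edgeR adjusted p = 0.112) and -0.18 ± 0.11 for Hsd17b11 (edgeR adjusted p = 0.279). Hsd17b13 was called higher without C57BL/6J replicate 2 (0.42, edgeR adjusted p = 0.0214) and Hsd17b11 lower without C57BL/6J replicate 1 (-0.30, edgeR adjusted p = 0.0404).

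Of the pair's counts, Hsd17b13 gave 73.7% and 74.3% in DBA/2J and 67.2% and 66.9% in C57BL/6J. The pair's coding sequences were 64.8% identical. The sum of both genes differed by 0.16 ± 0.12 (edgeR adjusted p = 0.37). Among all tested genes, 8.87% were lower and 9.29% higher. Of 14 tested genes of the lipid droplet, 4 were lower and 0 higher, with a median of -0.41. These were Plin4, a droplet coat gene (-1.06 ± 0.14, edgeR adjusted p = 0.00922), Fitm2 and Fitm1, which act in droplet formation (-0.78 and -1.69), and Pnpla2, the triglyceride lipase gene (-0.42). None of the 4 calls held without DBA/2J replicate 1 or replicate 2. With any library left out, the log2 difference was -1.21 to -0.93 for Plin4 and -0.47 to -0.39 for Pnpla2. More of the 14 were called with either C57BL/6J library left out, and more of all tested genes were called too.

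Srd5a1 was the one gene called lower. It encodes the steroid reductase that turns testosterone into dihydrotestosterone and starts the clearance of glucocorticoids. It lies on chromosome 13 at 69573449 to 69611442 (reverse strand), and 16.5% of its exon bases overlap Gm17108, where reads of either gene may go uncounted. It had 5120 and 5944 counts in DBA/2J and 6661 and 9206 in C57BL/6J. The DBA/2J libraries agreed closely, at 106 and 107 CPM, and both were below the C57BL/6J libraries at 137 and 184 CPM. The means were 107 CPM ± 0.932 and 161 CPM ± 33.8 (SD, n = 2 each), 1.5-fold lower in DBA/2J. The log2 difference was -0.59 ± 0.15 (edgeR adjusted p = 0.0464). It was not called without DBA/2J replicate 1 (-0.59) or replicate 2 (-0.60). It was also not called with library totals in place of TMM (edgeR adjusted p = 0.0636) or with limma-voom (adjusted p = 0.0532). The same held when only genes with 0 counts in all libraries were removed (edgeR adjusted p = 0.116). Without C57BL/6J replicate 2, the higher library, the log2 difference was -0.36, and without C57BL/6J replicate 1 it was -0.79. It was called in both of these fits.

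The related reductase genes Srd5a2 and Srd5a3 were low, with log2 differences of 0.75 ± 0.30 and -0.26 ± 0.16 (edgeR adjusted p = 0.142 and 0.298). Srd5a2 had 94 and 100 counts in DBA/2J and 42 and 68 in C57BL/6J. Akr1d1, which reduces the same double bond to the other ring geometry in bile acid synthesis and steroid clearance, stood at 0.30 ± 0.09 (edgeR adjusted p = 0.0695).

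Akr1c6 was the most abundant of the 10 and did not pass the test. It encodes the mouse liver AKR1C enzyme that reduces androstenedione to testosterone, and lies on chromosome 13 at 4434306 to 4457530 (forward strand). Akr1c6 was read 59373 and 64601 times in DBA/2J libraries and 64329 and 60998 times in C57BL/6J. The strains overlapped, at 1199 CPM ± 44.5 and 1271 CPM ± 69.1 (SD, n = 2 each). The log2 difference was -0.08 ± 0.12 (edgeR adjusted p = 0.662), and it stayed between -0.14 and -0.00 in the 12 alternative fits, none of which called it.

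Within the AKR1C cluster, Akr1c6 gave 64.8% and 62.5% of the cluster's counts in DBA/2J and 65.7% and 61.8% in C57BL/6J. Akr1c14, the next gene, gave 20.3% and 21.4% in DBA/2J and 17.4% and 20.5% in C57BL/6J. The strains overlapped for both shares. They did not for Akr1c13, at 3.85% and 4.14% in DBA/2J and 4.45% and 4.71% in C57BL/6J, nor for Akr1c12, at 3.44% and 3.68% against 4.18% and 4.04%; shares were not tested. The summed 8 copies differed by -0.08 ± 0.13 (edgeR adjusted p = 0.706). Akr1c20, the copy most like Akr1c6 among those compared at 92.3% coding identity, differed by -0.16 ± 0.08. Of 12 other tested aldo-keto reductase genes, edgeR called 0, against 18.2% of all tested genes. In edgeR, 4 had an unadjusted p below 0.05 (1 higher and 3 lower), and DESeq2 and limma-voom called 0. With either C57BL/6J library left out, some of the 12 were called, and more of all tested genes were called too.

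Cyp17a1 was low in every library. It encodes the hydroxylase and lyase that commits steroids to androgen synthesis, chiefly in the gonad. The gene lies on chromosome 19 at 46667165 to 46672974 (reverse strand). Cyp17a1 had 161 and 195 counts in DBA/2J and 84 and 248 in C57BL/6J. The C57BL/6J libraries bracketed those of DBA/2J, and C57BL/6J replicate 2 was 2.88-fold above replicate 1 in CPM. The means were 3.43 CPM ± 0.133 and 3.35 CPM ± 2.29 (SD, n = 2 each), with a log2 difference of 0.03 ± 0.47 (edgeR adjusted p = 0.966). The direction depended on which C57BL/6J library was kept: it was 0.99 without replicate 2, and then called (edgeR adjusted p = 0.0203), and -0.54 without replicate 1 (edgeR adjusted p = 0.0821).

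**Figure D4:**
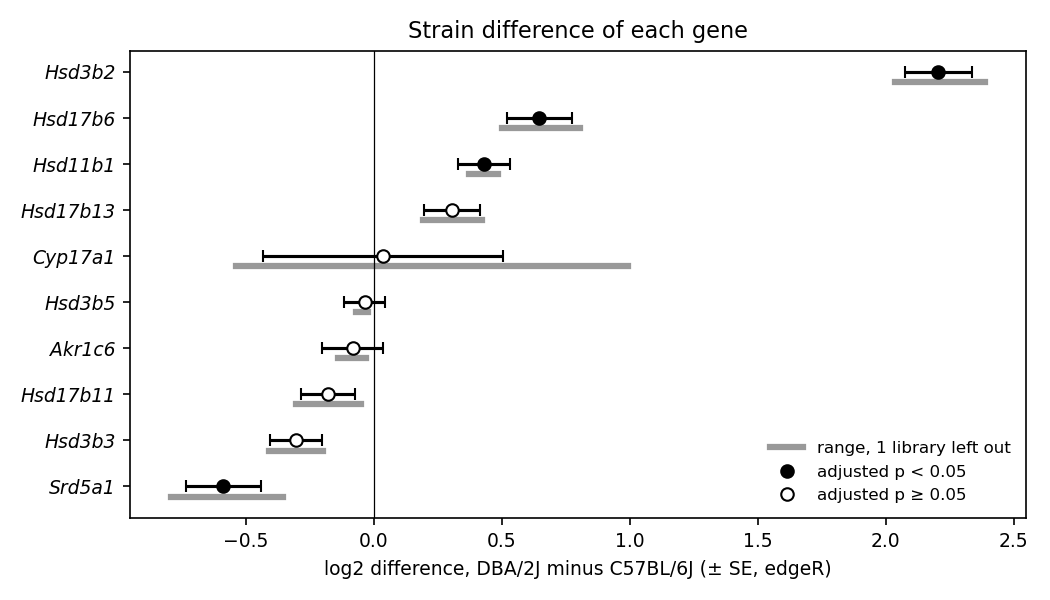
Log2 difference of each gene, DBA/2J minus C57BL/6J, with its standard error (edgeR); grey bars give the range with 1 library left out and filled points have an adjusted p below 0.05. Hsd3b2 stands at 2.21, the other called genes lie between -0.59 and 0.65, and the Cyp17a1 range crosses 0.

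Per kilobase of annotated exon, Akr1c6 was the highest of the 10 in both strains, at 649 ± 24.1 CPM per kb in DBA/2J and 687 ± 37.4 in C57BL/6J (SD, n = 2 each). In DBA/2J it was followed by Hsd17b13 (191 ± 8.66), Hsd17b6 (184 ± 13.5), Hsd11b1 (181 ± 1.64) and Hsd3b5 (160 ± 4.57). Neighbours among the first 3 of these overlapped within 1 SD. In C57BL/6J the order was Hsd3b5 (164 ± 1.89), Hsd17b13 (154 ± 17.1), Hsd11b1 (134 ± 7.21) and Hsd17b6 (117 ± 17.6), and each of these overlapped its neighbour in the order within 1 SD. Hsd3b2 was next in DBA/2J at 61.5 ± 0.563 CPM per kb, but second lowest in C57BL/6J at 13.3 ± 2.26. Hsd17b11 stood at 44.3 ± 1.04 and 50.2 ± 6.13, Srd5a1 at 37.1 ± 0.324 and 55.7 ± 11.7, and Hsd3b3 at 20.6 ± 1.07 and 25.4 ± 2.60. Cyp17a1 was lowest in both, at 1.58 ± 0.0613 and 1.54 ± 1.06. Exon length covers all annotated exons of a symbol, so genes with long rare transcripts rank too low.

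Among the other hydroxysteroid dehydrogenase genes, 10 were tested, 2 were lower and 0 higher. The share called over all tested genes was 18.2%, 9.29% higher and 8.87% lower, and no direction of the list was tested. Hsd17b2, whose enzyme oxidises estradiol and testosterone to less active keto forms, was lower by -0.42 ± 0.09 (edgeR adjusted p = 0.0334). Hsd17b10, a mitochondrial enzyme gene also needed for mitochondrial RNA processing, was lower by -0.59 ± 0.11 (edgeR adjusted p = 0.0198). Both calls were lost without DBA/2J replicate 1 or replicate 2 (edgeR adjusted p up to 0.254 and 0.174). Of 7 tested redox partners of steroid enzymes, 2 were lower: Por, the electron donor of microsomal P450 enzymes (-0.91 ± 0.09, edgeR adjusted p = 0.00324), and Cyb5a, cytochrome b5 (-0.53 ± 0.10, edgeR adjusted p = 0.0243). Por had 10347 and 12786 counts in DBA/2J and 20007 and 21445 in C57BL/6J. Leaving out either DBA/2J library ended both calls (edgeR adjusted p up to 0.0763 for Por and 0.223 for Cyb5a). Of 4 tested steroid synthesis genes, 1 was lower, Cyp21a1 (73 and 41 counts against 272 and 199, edgeR adjusted p = 0.0186), which has a near-identical pseudogene and was not called without DBA/2J replicate 1 or replicate 2 (edgeR adjusted p up to 0.132).

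**Figure D5:**
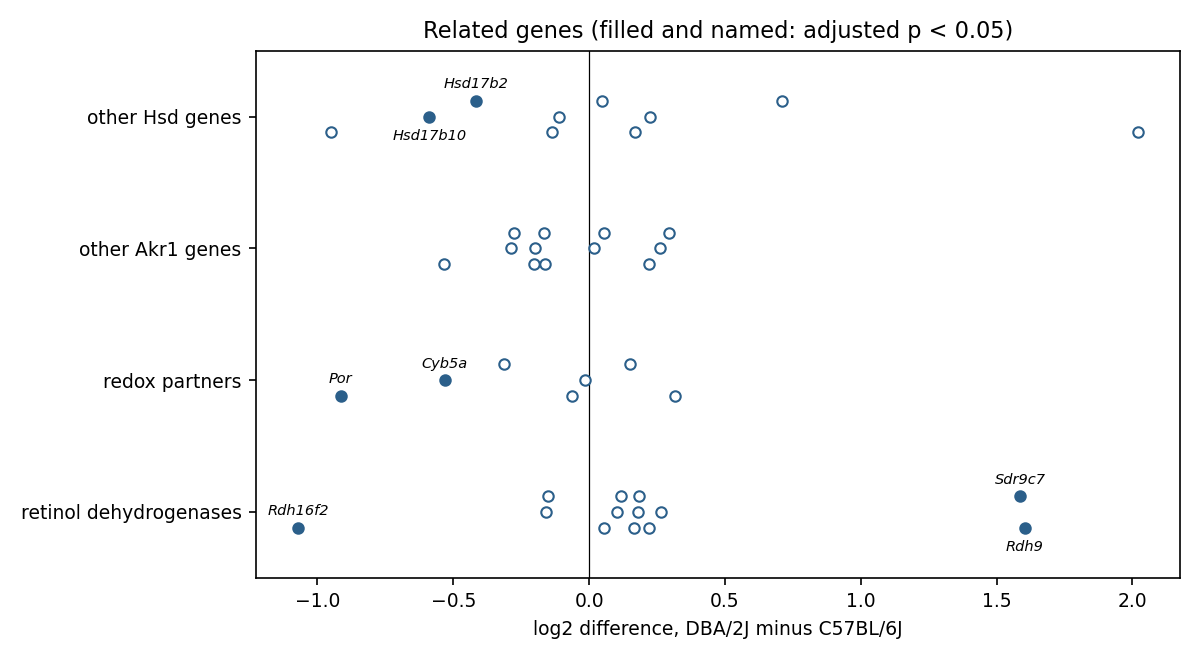
Log2 difference, DBA/2J minus C57BL/6J, of tested genes in 4 lists of related genes; filled and named points have an edgeR adjusted p below 0.05. The called redox partners and other Hsd genes lie below 0, and the called retinol dehydrogenases on both sides.

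Sex-dependent liver genes were read because Hsd3b5 belongs to them. Among all tested genes, 18.2% were called in either direction. Of 14 tested genes known to be higher in male liver, 4 were higher in DBA/2J and 1 lower. C4a (2.43 ± 0.14, edgeR adjusted p = 6.84e-04) was called with any library left out. Moxd1, Slco1a1 and Selenbp2 (3.91, 0.42 and 0.91) and the lower gene Mup20 (-1.83 ± 0.31) were not called without DBA/2J replicate 1 or replicate 2; Slco1a1 was also lost without C57BL/6J replicate 2 and Selenbp2 without C57BL/6J replicate 1. Of 11 tested genes known to be higher in female liver, 4 were higher and 2 lower. Cyp2a4 (1.85 ± 0.38) and Hao2 (3.01 ± 0.52), the latter also counted near the Hsd3b cluster, were not called without DBA/2J replicate 1 or replicate 2. Fmo2 stood at 2.29 ± 0.13 and Cyp3a41a at 5.98 ± 0.49, whereas Cyp2c40 and Cyp2c69 stood at -6.44 and -6.58, all 4 called with any library left out. Of 11 growth hormone axis genes, which set these sex differences through pulsatile STAT5 signalling, Stat5b alone was called (0.40 ± 0.09, edgeR adjusted p = 0.0387), and not without DBA/2J replicate 1 or replicate 2. Copies in the C4, Cyp3a and Cyp2c families can share reads.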

How the data were processed

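Liver poly(A) RNA of 4 mice was read as single-end reads of 100 bases, per the labels. The deposited values are raw counts for each gene symbol. Per the file headers, the authors made them with featureCounts 2.0.1 on exons of Ensembl release 88 (GRCm38), with no option for strand or for reads matching several places, but with -p, the option for paired reads, although the labels give single-end reads; which applies to the counts is not settled here, and the windows of 100 bases follow the labels. Per the submitters' processing notes, reads were aligned with STAR 2.4.0g1, and another featureCounts version, 1.5.2, is listed there. The exon length of each symbol is another deposited number, in bases. Rows without a gene name numbered 0.

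Counts were tested with edgeR 4.0.16 (R 4.3.3): TMM scaling, filterByExpr with a minimum count of 10, strain as the sole term, glmQLFit with legacy=FALSE and the quasi-likelihood F test. Standard errors were derived from F. CPM used TMM-scaled totals. The labels describe 2 mice per strain. The p-values rest on the spread between these libraries, moderated for each gene by the spread over all tested genes. Alternatives were DESeq2 1.42.0, limma-voom (limma 3.58.1), other scalings and filters, a replicate block and each library left out. The script was tested on simulated data.

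The genes and lists were chosen with earlier results of these data known. All 10 genes are named; of each list, up to 4 called members with the lowest adjusted p or all of 5 or fewer, and called neighbours within 250 kb by the files' coordinates. H6pd, Akr1d1, Akr1c12, Akr1c13, Akr1c14, Akr1c20, Rdh7, Srd5a2, Srd5a3, Hsd3b7 and Cyp2a4 were named after their values were seen. The same holds for Hao2 among the female liver genes. Motif and alignment scripts used RefSeq windows and GENCODE release M21, both GRCm38. The other steroid receptor genes are not reported here.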

Additional observations from a re-analysis of the deposited data

How the results depend on the processing

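Hsd3b2 kept its direction and its call in all 12 alternatives. Of the 10 genes, 3 were higher and 1 lower with all libraries; 0 were lower with library totals in place of TMM or with limma-voom, and 1 was higher and 0 lower when only genes with 0 counts in all libraries were removed. That filter also gave 809 higher and 707 lower among all genes, against 1454 and 1388, and 9 higher and 10 lower among the related genes of the lists, against 14 and 16. DESeq2 called 25 of the related genes lower. Among all genes, library totals gave 1924 higher and 1024 lower, DESeq2 1658 and 1642, and limma-voom 1423 and 1329.

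The log2 difference of the summed Hsd3b genes, 0.38 in the main analysis, lost its call with RLE scaling (0.37), the weaker filter (0.38) and edgeR's legacy setting (0.38). Summing replaced the values of Hsd3b3 and Hsd3b5, both below 0, by 0.38, by construction. With 1 library left out, 1 to 5 of the 10 genes were higher and 0 to 3 lower, 186 to 2450 of all genes were higher and 106 to 2455 lower, 3 to 24 related genes were higher and 2 to 33 lower, and the Hsd3b sum was 0.33 to 0.43. The lowest counts came without a DBA/2J library. These fits hold 3 libraries, and the lone library of a strain is assumed to vary like the other strain. The cause of the other changes was not tested.

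The labels give no pairing of samples by replicate number. Deviations of replicate 1 from the strain means correlated between the strains at r = 0.0475 over genes. With 2 libraries per strain, this value cannot decide whether replicates shared a batch. With the replicate number as a block, 2 of the 10 genes were higher and 1 lower, against 1220 higher and 1175 lower among all 15647 tested genes. The Hsd3b sum then stood at 0.38 (edgeR adjusted p = 0.0739). Cyp17a1 had 84 to 248 counts and the other 9 genes at least 2114. Its replicates differed 2.88-fold in C57BL/6J and 1.06-fold in DBA/2J.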
